A study of Mus musculus with 4 samples.

Results

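The 43 genes described here encode the phosphoinositide 3-kinase (PI3K) and mTOR signalling pathway, from insulin and IGF receptors to the S6 kinases and the brakes on mTOR. They were chosen by gene symbol and are 43 of the 19698 genes tested. RNA immunoprecipitation (RIP) recovers the RNA bound to a protein with an antibody against that protein, and non-specific IgG gives the background. RNA came from the cortex and hippocampus of C57BL/6 male mice aged 8 weeks and was recovered with CPEB2 IgG on 2 arrays and with control IgG on 2 arrays. CPEB2 binds mRNAs that carry a cytoplasmic polyadenylation element (CPE) and regulates their translation. The lysate was divided between the antibodies in each of 2 experiments, so every CPEB2 IgG array has a control IgG partner, and the labels name no mutation or drug. CPEB3 IgG is named in a text field of the samples titled CPEB2 IgG, but the titles, the protocol and the study give CPEB2. The number of animals behind each lysate is not given in the sources used here, and no array of the input lysate was analysed here, so the ratio of the antibodies is not a measure of how much of a transcript the tissue held.

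In this pathway, ligands such as IGF1 activate receptor tyrosine kinases, which recruit PI3K through adaptor proteins. PI3K makes the membrane lipid PIP3, PDK1 and AKT are activated there, and AKT relieves the TSC complex's inhibition of Rheb, the small GTPase that switches on mTOR. The kinase mTOR works in mTORC1, which contains raptor, responds to amino acids through the Rag GTPases and drives protein synthesis through the S6 kinases, and in mTORC2, which contains rictor and phosphorylates AKT and SGK1. In neurons the pathway is known for controlling protein synthesis at synapses during long-lasting plasticity.

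The array reads each gene through features of 60 bases, and the 43 genes had 73 of them. Stretches of 30 bases from a few features are printed here to show what was measured at the genes on which the results turn. The letters of the CPE were searched as TTTTAT or TTTTAAT on the strand listed for the feature and were found in 3 of the 73 features, against 4.54% of all 55681 features on the array. These 3 stretches are shown because they are the only places where the features themselves hold CPE letters, in capitals.
Mtor, the more 5′ feature, chr4:147829016-147829075: gtcacactattaTTTTATgcatctctatca
Rps6ka3, the brightest feature, chrX:155805050-155805109: TTTTATtccagtctttaactgttcataatg
Pik3cd, the brightest feature, chr4:149023282-149023341: ggtgaaaagaaataaaaacgtTTTTATgtt
With CPEB2 IgG the first of these features was lower, that of Rps6ka3 higher and that of Pik3cd not called.

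The letters AATAAA, the common polyadenylation signal, were searched in the same way and were found in 13 of the 73 features, against 10.1% of all features. In the fit across features 4 of the 13 were higher with CPEB2 IgG, 1 was lower and 8 were not called, where 12.7% of 41137 detected features were higher and 14.8% lower. The letters are in capitals in the stretches of the 4 higher features, from Rictor, Pdpk1, Rps6kb1 and Sesn1, of the lower one, the more 5′ feature of Mtor, and of 2 features that were not called, from Ulk1 and Rheb.
Rictor, chr15:6749416-6749475: agagctgcttgcAATAAAcatttcagattt
Pdpk1, chr17:24210650-24210709: cggtagtcttgtAATAAAagcatgtagagt
Rps6kb1, chr11:86316064-86316123: tcgatggaggaaaaAATAAAcatggatttt
Sesn1, chr10:41628012-41628071: agctccttaaagAATAAAgctggaaaatat
Mtor, the more 5′ feature, chr4:147829016-147829075: tgcatctctatcAATAAAaatgtatcaatt
Ulk1, chr5:111213514-111213573: tcatatcagtttaagaaAATAAAaattgga
Rheb, chr5:24309069-24309128: tgtatacttgtaAATAAAatagctgcaaac
Rptor has 1 feature, which holds neither set of letters, and its first 30 bases are shown because its direction is the opposite of that of Rictor.
Rptor, chr11:119760596-119760655: gacctagagcgcatttctctatttatttta
The coordinates are those of the whole feature on mm9, as the array annotation gives them. Features on Mtor, Rictor, Sesn1, Rptor and Rps6ka3 lie on the plus strand and those on Pik3cd, Pdpk1, Rps6kb1, Ulk1 and Rheb on the minus strand. No mm9 gene annotation was used here, so whether a feature lies in a coding exon or in a UTR is not stated, and the presence or absence of letters in a feature says nothing about the rest of the transcript.

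Of the 43 genes, 15 were higher with CPEB2 IgG and 10 were lower than with the control in the limma test across all genes at a Benjamini-Hochberg adjusted p under 0.05. Among all genes tested 21.2% were higher and 20.4% lower. A raw signal over 1000 on 1 or both CPEB2 IgG arrays was read in 27 of the 43 genes and 7013 of 19698. Above that signal 13 of the 27 pathway genes were higher and 3 lower, and of the 7013 genes 2735 were higher and 1271 lower. The part of signal level in these counts, and in those of the groups below, was not tested. Values below are log2 ratios of CPEB2 IgG over control IgG, given as mean ± SE (n = 2 experiments). Each array was first scaled to its own 75th percentile. The SE is the moderated one of limma, which shares variance across all genes, or across all detected features in the fit across features. It is therefore not the spread of the 2 experiments alone. Array signals are unscaled intensities listed for experiment 1 and then experiment 2. The median over the 43 genes was 0.10, and over all genes -0.11. On the scaled signals both CPEB2 IgG arrays lay above both control IgG arrays in 21 genes and below them in 15, where 33.7% and 38.2% of all genes did so. Every one of the 43 was detected on all 4 arrays by its brightest feature, which stands for the gene. Fits with 1 array left out, here and below, also drop the experiment block, so they differ from the main fit in model as well. With the first or the second control IgG array left out the genes called higher were 9 in both cases, while over all genes the number called higher went from 4174 to 2887 and 2923.

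**Figure D1:**
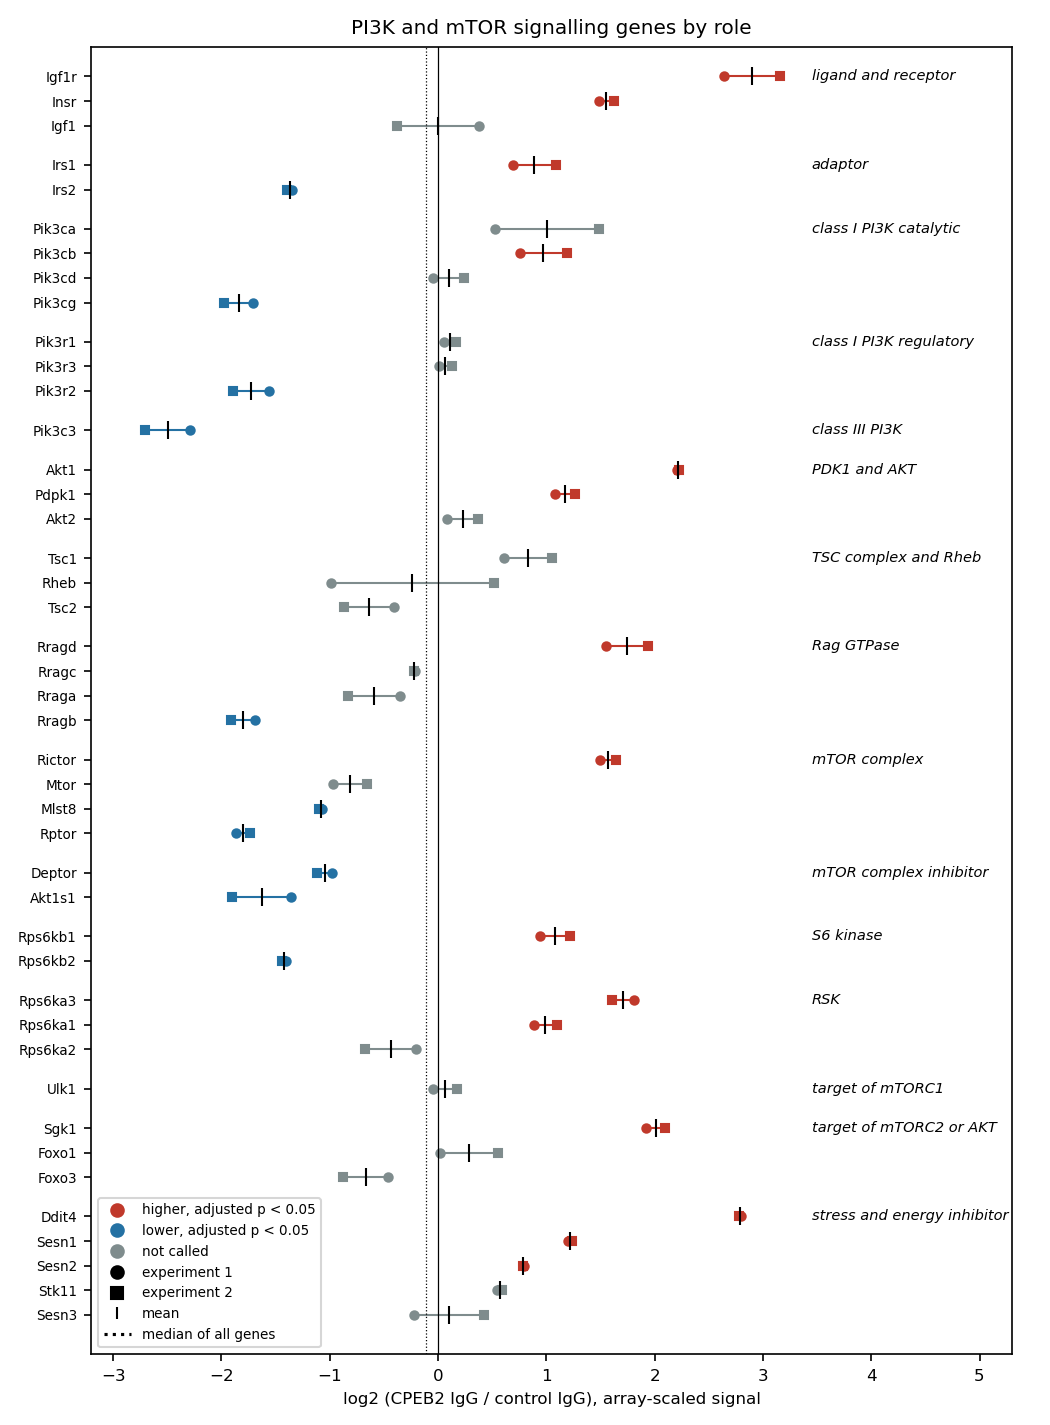
The 43 genes grouped by role, with the log2 ratio of CPEB2 IgG over control IgG in experiment 1 (circles), experiment 2 (squares) and their mean (bars). Red and blue genes were higher and lower in the limma test, grey ones were not called, and the dotted line is the median of all genes, -0.11.

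The arrays read as brain tissue. The neuron, astrocyte and oligodendrocyte markers all passed the detection filter, with Rbfox3, a neuronal splicing factor, from 24654 to 28862, and the liver markers Alb and Apoa1 did not pass it. Ttr, made by liver and by the choroid plexus, read 6966 and 291 on the CPEB2 IgG arrays against 11608 and 289 on the control arrays, so it differed more between the experiments than between the antibodies. Between 68.4% and 74.1% of features were well above background and none was saturated. Markers of the cell types varied in direction. Of 5 neuron markers 1 was higher and 2 lower with CPEB2 IgG (log2 ratios from -1.84 to 2.43), and of 4 excitatory neuron markers 1 was higher (from -0.03 to 1.11). Of 5 microglia markers 1 was higher and 2 lower with CPEB2 IgG (log2 ratios from -2.64 to 2.30), of 5 astrocyte markers 2 were higher and 2 lower (from -3.77 to 3.44), and the 3 endothelial markers tested ran from -0.36 to 0.14. Of 4 interneuron markers 2 were lower (from -1.98 to -0.04), of 3 erythrocyte markers 1 was lower (from -1.28 to -0.46), and of 4 oligodendrocyte markers 1 was lower (from -0.84 to 0.29). None of the markers in these last groups was called higher. Their part in the values below was not tested. All arrays sat on one slide, with each antibody at its own positions, so position and antibody cannot be told apart. In the signal of a single array of bulk lysate, fewer cells of a type and less RNA per cell cannot be told apart, while both antibodies of an experiment shared a lysate.

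The genes that define the 2 mTOR complexes differed in direction. Rictor, the defining subunit of mTORC2, was higher with CPEB2 IgG, whereas Rptor, the scaffold that defines mTORC1, was lower. Signals of Rictor were 2322 and 2645 on the CPEB2 IgG arrays against 873 and 860.5 on the control arrays. Both CPEB2 IgG values stood above both control values, and the log2 ratio was 1.57 ± 0.23, or 2.97-fold (adjusted p = 0.00887). Rptor read 425 and 469.5 on the CPEB2 IgG arrays against 1638 and 1588 on the control arrays, with no overlap in the other direction. Its log2 ratio was -1.80 ± 0.23, or 3.48-fold lower (adjusted p = 0.00695). Both calls held under all 18 tested settings.

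Mlst8, a subunit common to both complexes, was lower as well, with signals of 1213 and 1106 on the CPEB2 IgG arrays against 2705 and 2401 on the control arrays and a log2 ratio of -1.08 ± 0.23 (adjusted p = 0.0215). Its call was lost without the first control IgG array (adjusted p = 0.0841) and without the second (adjusted p = 0.0607). Mtor, the kinase itself, read 194 and 230.3 on the CPEB2 IgG arrays against 404 and 368 on the control arrays. Its arrays did not overlap, but the log2 ratio of -0.81 ± 0.24 narrowly missed the threshold (adjusted p = 0.0521, 95% interval -1.45 to -0.18). It was called lower in 10 of the 18 tested settings, among them without the replicate block (adjusted p = 0.0331). The second feature of Mtor, which carries the CPE letters shown above, read 22 and 24 on the CPEB2 IgG arrays against 96.4 and 97 on the control arrays. It was lower with a log2 ratio of -2.02 ± 0.28 in a fit across all detected features (adjusted p = 0.00897). This feature is dim, is not annotated to a RefSeq transcript of Mtor and lies 102234 bases 5′ of the brightest one.

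Both inhibitory partners of the complexes were lower with CPEB2 IgG. Akt1s1, which encodes the mTORC1 inhibitor PRAS40, read 73.5 and 73.4 on the CPEB2 IgG arrays against 199 and 279 on the control arrays. Its log2 ratio was -1.63 ± 0.26 (adjusted p = 0.0107). Deptor, an inhibitor that binds mTOR in both complexes, read 193 and 192 on the CPEB2 IgG arrays against 403 and 423 on the control arrays. These groups did not overlap, and the log2 ratio was -1.05 ± 0.23 (adjusted p = 0.0241). The Deptor call was lost without the first or the second control IgG array (adjusted p = 0.0664 and 0.0916). A second, dimmer feature annotated to Deptor read 94.9 and 97.9 on the CPEB2 IgG arrays against 80.2 and 93.7 on the control arrays and had a log2 ratio of 0.21 ± 0.28 (adjusted p = 0.63).

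**Figure D2:**
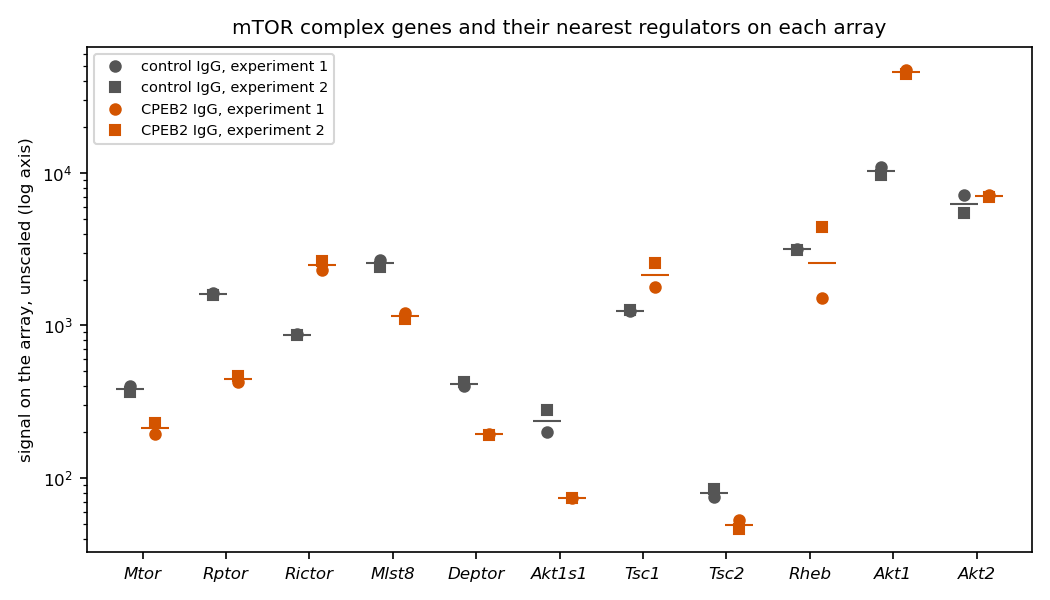
Unscaled signal on each array (log axis) for Mtor, Rptor, Rictor, Mlst8, Deptor, Akt1s1, Tsc1, Tsc2, Rheb, Akt1 and Akt2, with control IgG in grey and CPEB2 IgG in orange. Short lines are geometric means of the 2 arrays, circles are experiment 1 and squares experiment 2. Rictor and Akt1 stand higher with CPEB2 IgG, Rptor, Mlst8, Deptor and Akt1s1 lower, and the CPEB2 IgG arrays of Rheb lie on either side of the control arrays.

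Tsc1, Tsc2 and Rheb, which link AKT to mTOR, were not called. Tsc1, which encodes hamartin of the TSC complex, read 1795 and 2567 on the CPEB2 IgG arrays against 1245 and 1255 on the control arrays, and its log2 ratio was 0.83 ± 0.25 (adjusted p = 0.0545, 95% interval 0.17 to 1.49). It was called higher in 6 of the 18 tested settings. Tsc2, which encodes tuberin, the subunit that inactivates Rheb, was dim at 53.4 and 46 on the CPEB2 IgG arrays against 75.1 and 85.2 on the control arrays, and its log2 ratio was -0.64 ± 0.25 (adjusted p = 0.106, 95% interval -1.30 to 0.03). In each gene the antibodies' arrays did not overlap, those of Tsc1 higher and those of Tsc2 lower with CPEB2 IgG. Rheb, the direct activator of mTORC1, read 1516 and 4398 on the CPEB2 IgG arrays against 3182 and 3132 on the control arrays. The experiments went opposite ways, with log2 ratios of -0.99 and 0.51, and the mean was -0.24 ± 0.42 (adjusted p = 0.683). The second CPEB2 IgG array was above both control arrays and the first below them. An overlapping Rheb feature repeated this, with -0.83 and 0.59, and a dim feature further 3′ had -1.63 and -0.65. The brightest Rheb feature had the lowest GC content of the members' chosen features, 25%. Rheb was called lower without the second CPEB2 IgG array (adjusted p = 0.0398).

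The Rag GTPases, which bring mTORC1 to the lysosome when amino acids are present, work as a dimer of RagA or RagB with RagC or RagD, and the genes of the 4 proteins did not share a direction. Rragd was higher, with signals of 2457 and 2057 on the CPEB2 IgG arrays against 886 and 544 on the control arrays and a log2 ratio of 1.75 ± 0.25 (adjusted p = 0.00808). Rragb was lower, with signals of 51.2 and 43.5 on the CPEB2 IgG arrays against 175 and 166 on the control arrays and a log2 ratio of -1.80 ± 0.23 (adjusted p = 0.00713). Neither gene's groups overlapped. Rraga and Rragc were not called, at -0.59 ± 0.25 (adjusted p = 0.127) and -0.22 ± 0.23 (adjusted p = 0.486).

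At the cell surface both receptors were higher with CPEB2 IgG. Igf1r, the receptor of IGF1, had the largest log2 ratio of the 43 genes. It read 6105 and 8034 on the CPEB2 IgG arrays against 1035 and 915 on the control arrays, which is 7.47-fold and a log2 ratio of 2.90 ± 0.26 (adjusted p = 0.00543). Insr, the insulin receptor, read 382 and 465 on the CPEB2 IgG arrays against 145 and 153 on the control arrays at its brightest feature. The groups stood apart with a log2 ratio of 1.56 ± 0.23 (adjusted p = 0.00903), and both of its other features were higher too, at 2.04 and 1.98. Igf1, the ligand, read 995 and 929 on the CPEB2 IgG arrays against 811 and 1226 on the control arrays at its brightest feature. These values overlapped, the experiments gave 0.38 and -0.38, and the mean was 0.00 ± 0.29 (adjusted p = 0.998).

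The insulin receptor substrates, the adaptors that link these receptors to PI3K, had opposite directions at their brightest features. Irs1 read 1686 and 1869 on the CPEB2 IgG arrays against 1107 and 894 on the control arrays and was higher, with a log2 ratio of 0.89 ± 0.25 (adjusted p = 0.0444). Irs2 read 3766 and 3181 on the CPEB2 IgG arrays against 10149 and 8488 on the control arrays and was lower by 2.58-fold, with a log2 ratio of -1.37 ± 0.23 (adjusted p = 0.0118). Neither adaptor's groups overlapped. The Irs1 call was lost without the second CPEB2 IgG array (adjusted p = 0.0779) and without the first or second control IgG array (adjusted p = 0.0881 and 0.172). It was also lost with centring within bins of GC content (adjusted p = 0.136) and with the mean of the features (adjusted p = 0.155). A second, dimmer Irs1 feature further 5′ gave -0.09 and 0.43 in the experiments. In the fit across features it was not called, at 0.17 ± 0.30 (adjusted p = 0.712), and the brightest Irs1 feature was not called either (adjusted p = 0.0751).

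Among the PI3K catalytic subunits, 1 of the 4 class I genes was higher and 1 lower, where 21.2% and 20.4% of all genes were. Pik3cb, which encodes the widely expressed p110-beta, had a log2 ratio of 0.97 ± 0.25 (adjusted p = 0.0363), from signals of 846 and 1348 on the CPEB2 IgG arrays against 532 and 599 on the control arrays. Without the replicate block this call was lost (adjusted p = 0.0547), and so it was without the second CPEB2 IgG array (adjusted p = 0.117), the first control IgG array (adjusted p = 0.184) or the second (adjusted p = 0.101). Pik3cg, which encodes p110-gamma, best known from leukocytes, was dim at 41.6 and 29.8 on the CPEB2 IgG arrays against 144 and 119 on the control arrays. It was lower by 3.58-fold, with a log2 ratio of -1.84 ± 0.24 (adjusted p = 0.00698).

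Pik3ca, which encodes p110-alpha, read 287 and 443 on the CPEB2 IgG arrays against 211 and 160.2 on the control arrays and had log2 ratios of 0.53 and 1.49 in the experiments. The mean of 1.01 ± 0.32 did not pass (adjusted p = 0.0622), although the arrays did not overlap and the fit without the block called it higher (adjusted p = 0.0496). Pik3cd, which encodes p110-delta, was not called at 0.10 ± 0.24 (adjusted p = 0.77, 95% interval -0.53 to 0.73).

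Pik3c3, which encodes the class III kinase Vps34 of endosomes and autophagy, was the lowest of the 43 genes. Its signals were 70 and 72.2 on the CPEB2 IgG arrays against 363 and 477 on the control arrays, a difference of 5.64-fold and a log2 ratio of -2.50 ± 0.25 (adjusted p = 0.00543). Its second feature was lower as well, at -2.95 ± 0.33 (adjusted p = 0.00688). Of the class I regulatory subunits, Pik3r2, which encodes p85-beta, read 1424 and 1297 on the CPEB2 IgG arrays against 4437 and 4890.1 on the control arrays and was lower, with a log2 ratio of -1.72 ± 0.24 (adjusted p = 0.00802). Pik3r1 and Pik3r3, which encode p85-alpha and p55-gamma, were not called, at 0.11 ± 0.23 (95% interval -0.50 to 0.72) and 0.07 ± 0.23 (95% interval -0.54 to 0.67).

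Of the kinases that read PIP3, Akt1 and Pdpk1 were higher and Akt2 was not called. Akt1, the AKT of growth and survival signalling, read 47292 and 44324 on the CPEB2 IgG arrays against 10875 and 9634 on the control arrays. Both experiments gave nearly the same log2 ratio, 2.20 and 2.23, with a mean of 2.21 ± 0.23, or 4.64-fold (adjusted p = 0.00554). Akt2, the AKT best known from insulin-driven glucose uptake, read 7183 and 6939.6 on the CPEB2 IgG arrays against 7167 and 5473 on the control arrays. The first control array nearly equalled the CPEB2 IgG arrays, and the log2 ratio was 0.23 ± 0.24 (adjusted p = 0.49, 95% interval -0.40 to 0.85), and the other 3 features on Akt2 lay between -0.17 and 0.20. Pdpk1, which encodes PDK1, the kinase that activates AKT, read 11858 and 12434 on the CPEB2 IgG arrays against 5944 and 5264 on the control arrays. Its arrays stood apart with a log2 ratio of 1.17 ± 0.23 (adjusted p = 0.0184), a call lost without the second control IgG array (adjusted p = 0.0641). The intervals of Akt1, 1.61 to 2.82, and of Akt2 did not overlap, and the difference between these genes was not tested.

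The S6 kinases, which mTORC1 activates to raise translation, split in direction. Rps6kb1, which encodes S6K1, read 7575 and 9119.8 on the CPEB2 IgG arrays against 4172 and 3992 on the control arrays, with a log2 ratio of 1.08 ± 0.24 (adjusted p = 0.0238). Rps6kb2, which encodes S6K2, read 44.7 and 71.4 on the CPEB2 IgG arrays against 125 and 197 on the control arrays, with a log2 ratio of -1.42 ± 0.23 (adjusted p = 0.0108), and its second feature was lower too at -1.17 ± 0.28. The groups of both genes stood apart. The Rps6kb1 call was lost without the first or the second control IgG array (adjusted p = 0.0773 and 0.0754). That of Rps6kb2 was lost without the first or second CPEB2 IgG array (adjusted p = 0.119 and 0.0584) or the second control IgG array (adjusted p = 0.107).

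The RSK kinases, which act downstream of ERK and PDK1 and inhibit the TSC complex, had 2 of 3 genes higher. Of all genes 21.2% were higher. Rps6ka3, which encodes RSK2, read 570.0 and 641 on the CPEB2 IgG arrays against 173 and 215 on the control arrays at its brightest feature. The log2 ratio was 1.70 ± 0.23 (adjusted p = 0.00769). This feature is not annotated to a RefSeq transcript of Rps6ka3. The call was lost when the brightest feature with a RefSeq mRNA accession stood for the gene (0.67, adjusted p = 0.0610). Rps6ka1, which encodes RSK1, read 3557 and 3239 on the CPEB2 IgG arrays against 2040.3 and 1541 on the control arrays, with a log2 ratio of 0.99 ± 0.23 (adjusted p = 0.0288). All CPEB2 IgG values of these genes lay above the control values. The Rps6ka1 call was lost with any 1 of the 4 arrays left out (adjusted p between 0.0593 and 0.148). Rps6ka2, which encodes RSK3, was not called at its brightest feature (-0.44 ± 0.25, adjusted p = 0.23), but that feature is annotated at chr17:13525609-13525668, 6.07 Mb from its other feature at chr17:7460229-7460288. The other feature, whose accession is a RefSeq transcript of Rps6ka2, read 24.5 and 22.6 on the CPEB2 IgG arrays against 61 and 57.5 on the control arrays and was lower, with a log2 ratio of -1.28 ± 0.28 (adjusted p = 0.0252).

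Targets of mTORC2 and AKT were led by Sgk1, which encodes a kinase that mTORC2 activates. Sgk1 read 7543 and 13673 on the CPEB2 IgG arrays against 2108 and 3253 on the control arrays, with a log2 ratio of 2.01 ± 0.23 (adjusted p = 0.00612). The CPEB2 IgG arrays stood above the controls in both experiments, and the call was lost without the second CPEB2 IgG array (adjusted p = 0.0665). Foxo1 and Foxo3, transcription factors that AKT keeps out of the nucleus, were not called at their brightest features, with 0.29 ± 0.26 (adjusted p = 0.427) and -0.67 ± 0.25 (adjusted p = 0.0919). Ulk1, the kinase that starts autophagy and is held back by mTORC1, was not called at 0.07 ± 0.24 (adjusted p = 0.839, 95% interval -0.55 to 0.68).

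The brakes that answer stress and low energy were higher or not called. Ddit4, which encodes REDD1, an inhibitor of mTORC1 induced by hypoxia and glucocorticoids, read 84441 and 97886 on the CPEB2 IgG arrays against 12856 and 14483 on the control arrays. The experiments gave 2.80 and 2.78, with a mean log2 ratio of 2.79 ± 0.23, or 6.91-fold (adjusted p = 0.00543). Of the sestrins, which hold mTORC1 back through the amino acid sensing GATOR complexes, Sesn1 read 6029 and 6603 on the CPEB2 IgG arrays against 2781 and 2852 on the control arrays and was higher with a log2 ratio of 1.22 ± 0.23 (adjusted p = 0.0159). Its call was lost without the first control IgG array (adjusted p = 0.0582). Sesn2, the leucine sensor, had 0.79 ± 0.23 and only just passed (adjusted p = 0.0499). It lost its call in 10 of the 18 tested settings, among them any 1 array left out (adjusted p between 0.0553 and 0.179). Sesn3 had experiments of opposite sign, -0.22 and 0.43, and was not called. Stk11, which encodes LKB1, the kinase that activates AMPK, was not called at 0.57 ± 0.23 (adjusted p = 0.111, 95% interval -0.04 to 1.17).

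Grouped by their effect on mTOR, 10 of 28 activators were higher and 7 lower, and 3 of 9 inhibitors were higher and 2 lower, where 21.2% of all genes were higher and 20.4% lower. The median log2 ratio of the activators was 0.08, from 0.03 in experiment 1 and 0.20 in experiment 2. This value changed sign to -0.02 with quantile normalization, with the percentile taken over features detected on all 4 arrays, and with centring by GC content. The median of the inhibitors was 0.57, from 0.54 and 0.59, and is the value of a single gene, Stk11. It kept its sign under all alternatives, from 0.38 to 0.80. The 6 downstream genes had 2 higher and 1 lower and a median of 0.18, and all genes tested had a median of -0.11. The difference between activators and inhibitors was not tested.

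**Figure D3:**
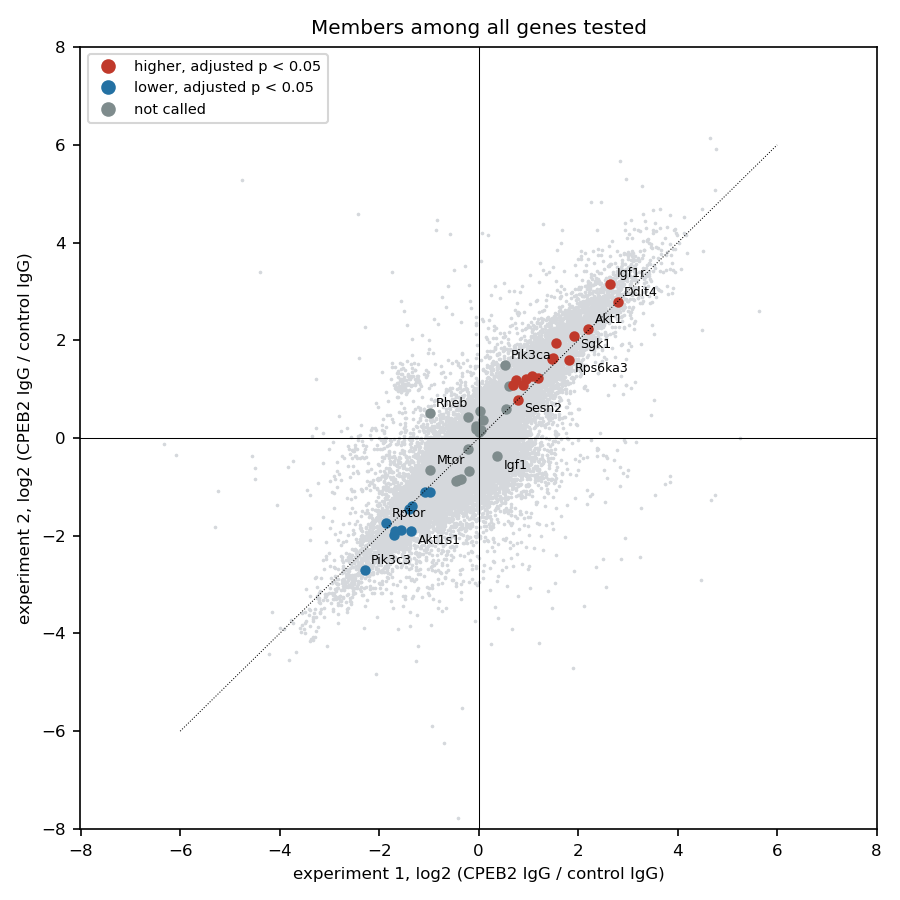
Log2 ratio of CPEB2 IgG over control IgG in experiment 1 (horizontal) and experiment 2 (vertical) for all 19698 genes tested (light grey) and the 43 PI3K and mTOR genes, coloured by call, with the diagonal dotted. Igf1r, Ddit4 and Akt1 lie at the upper right, Pik3c3 at the lower left, and Rheb and Igf1 had opposite signs in the experiments.

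A mean change above 1.5-fold together with 1 or both CPEB2 IgG arrays over a raw signal of 1000 were passed by 14 of the 43 genes, against 16.4% of all genes. These were Igf1r, Ddit4, Akt1, Sgk1, Rragd, Rictor, Sesn1, Pdpk1, Rps6kb1, Rps6ka1, Pik3cb, Irs1, Sesn2 and Tsc1. The study used these values as thresholds together with a CPE in the 3′ UTR, which was not looked up here, and does not state how its arrays were combined. Among genes above the raw signal, which is read on the CPEB2 IgG arrays alone, 14 of 27 in the pathway passed and 46.0% of all genes. Rps6ka3 and Insr, 2 genes higher by limma, stayed under the raw signal, and Tsc1 passed these thresholds without passing limma. All 14 also exceeded 1.5-fold in each experiment.

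**Figure D4:**
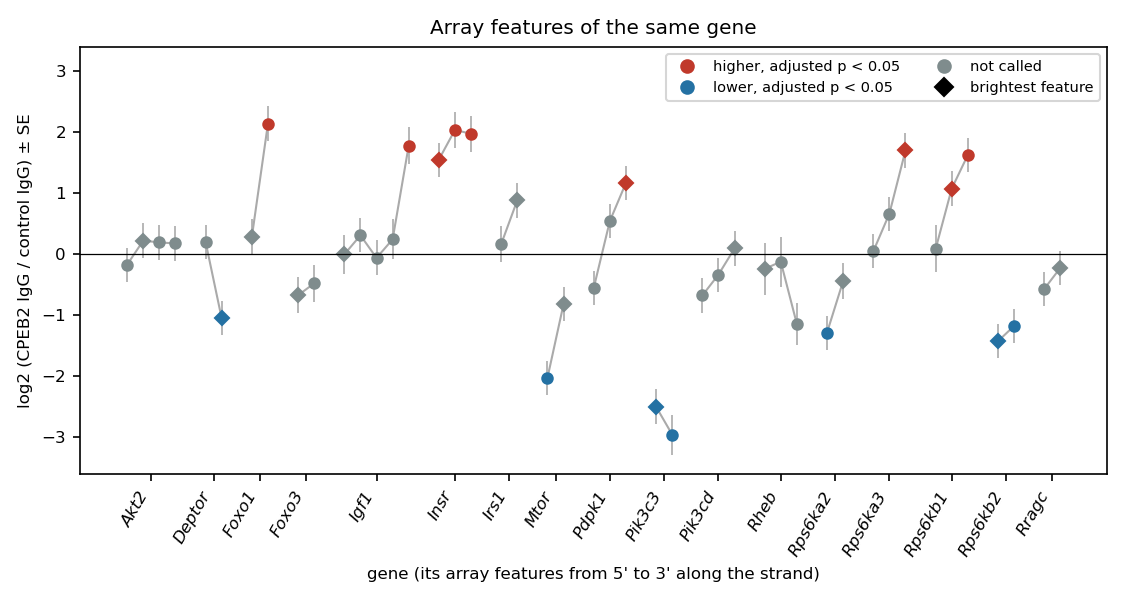
Log2 ratio ± SE of every detected feature of the 17 genes that had more than 1, placed from 5′ to 3′ along the strand, with diamonds for the brightest feature, which stands for the gene. Foxo1, Igf1, Pdpk1, Rps6ka3 and Rps6kb1 have higher values at their most 3′ feature, and no gene has features called in opposite directions. The 2 features of Rps6ka2 are annotated 6.07 Mb apart.

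Several genes gave different ratios at features in different places along the strand. Foxo1 is the clearest case. Its brightest feature at chr3:52150183-52150242 read 3062 and 4412 on the CPEB2 IgG arrays against 3204 and 3053 on the control arrays, whereas a feature further 3′ at chr3:52153289-52153348 read 4665 and 4701 on the CPEB2 IgG arrays against 1248 and 974 on the control arrays. The first was not called (0.29 ± 0.30) and the second was higher at 2.14 ± 0.29 (adjusted p = 0.00845) in the fit across features. The first 30 bases of each are shown because they read the same annotated transcript.
Foxo1, 5′ feature: ttcggaatgacctcatggatggagatacct
Foxo1, 3′ feature: ttctgggagaatgttcgctttctggtctat

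Igf1 had 5 features, of which the most 3′ one, at chr10:87399581-87399640, read 244 and 287 on the CPEB2 IgG arrays against 89.3 and 71 on the control arrays and was higher at 1.78 ± 0.30 (adjusted p = 0.0132), while the other 4 lay between -0.06 and 0.31. From 5′ to 3′ the detected features of Pdpk1 gave -0.55, 0.55 and 1.17. Those of Rps6ka3 gave 0.05, 0.67 and 1.70, and those of Rps6kb1 0.09, 1.08 and 1.63. The last of each of these genes was the highest. Deptor, Rheb and Pik3c3 ran the other way, with differences between the most 3′ and the most 5′ feature of -1.25, -0.90 and -0.46. The most 5′ and most 3′ features of Pdpk1, Rps6ka3, Rps6kb1 and Deptor are annotated to different transcript records. Place and transcript therefore cannot be told apart between them. The brightest Igf1 feature is also annotated to another record, and the remaining Igf1 features share the record of the most 3′ one. In all, 13 of 16 genes with detected features between 60 bases and 2 Mb apart on one strand, which leaves out Rps6ka2, had the higher ratio at the most 3′ feature, with a median difference of 0.57. Across all 5171 such genes the share was 72.9% and the median difference 0.53, so the pathway's genes were close to the array as a whole. When the most 3′ detected feature stood for each gene, Foxo1 and Igf1 were called higher and Rheb lower (adjusted p = 0.00551, 0.00823 and 0.0448).

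**Figure D5:**
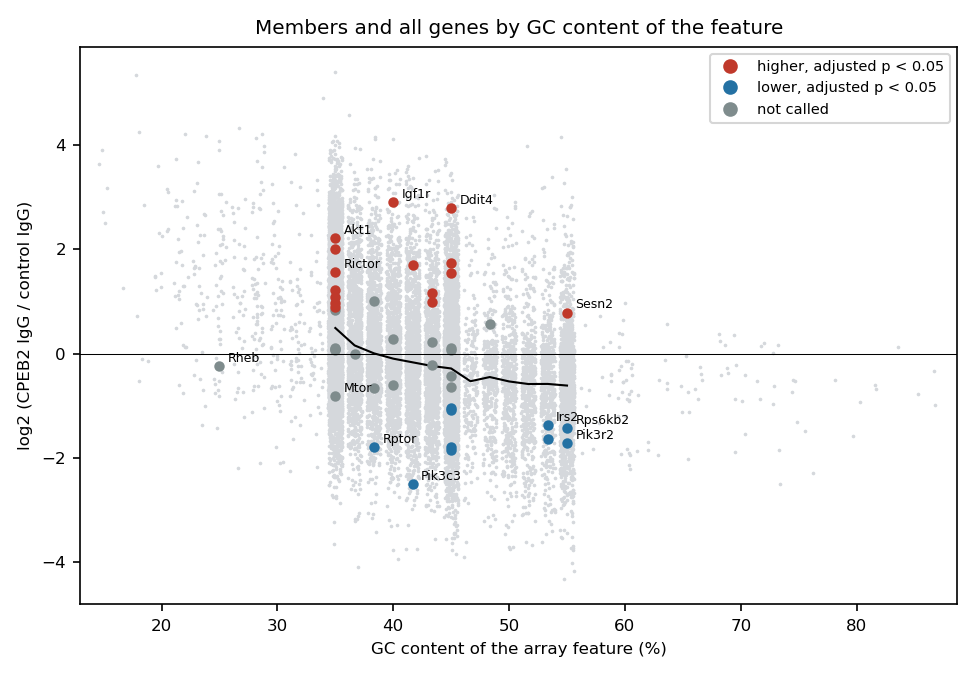
Log2 ratio of CPEB2 IgG over control IgG against the GC content of the feature, for all genes tested (light grey, jittered sideways), their median at each GC value (line) and the 43 genes, coloured by call. Genes called higher range from 35% to 55% GC, and Rptor, at 38.3%, was lower while the median line lies near 0.

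The ratio moved with the GC content of the feature on the whole array and in the pathway. Over 26710 detected features of named genes the correlation was -0.36, with medians of 0.34 below 40% GC, -0.26 from 40% to 50% and -0.61 at 50% or above. Over the 43 genes it was -0.33, a description across features that share the same 4 arrays. Features of the 15 higher genes had a median GC content of 40% and those of the 10 lower genes 45%. Rictor, at 35%, and Rptor, at 38.3%, differed little in GC content. With signals centred within bins of GC content 11 of the 43 genes were higher and 12 lower. Over all 19698 genes the counts went from 4174 higher and 4020 lower to 3656 and 4393. Rictor stayed higher at 1.11 and Rptor lower at -2.26. With the same centring Mtor was called lower at -1.27 (adjusted p = 0.0168) and Rheb at -1.35 (adjusted p = 0.0203), and the calls of Irs1, Pik3cb, Rps6kb1 and Sesn1 were lost.

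A list of 66 further genes of the pathway, all of them tested, had 22 higher (33.3%) and 14 lower (21.2%), with a median of 0.16, where 21.2% of all genes were higher and 20.4% lower with a median of -0.11. Folliculin and its partners, which control the RagC and RagD GTPases, were all higher. Flcn, folliculin itself, read 6274 and 6142 on the CPEB2 IgG arrays against 1186 and 1209 on the control arrays, with a log2 ratio of 2.43 ± 0.23 (adjusted p = 0.00543). Its partner Fnip2 had the largest ratio of the 66 at 3.88 ± 0.29 (adjusted p = 0.00543), and Fnip1 was at 2.16 ± 0.23 (adjusted p = 0.00565). The features of Flcn and Fnip1 had 35% GC and that of Fnip2 28.3%, in the range below 40% where the array-wide median was 0.34. The part of GC content in these ratios was not tested. Rps6ka5, which encodes the nuclear kinase MSK1, related to the RSKs, was higher at 2.66 ± 0.25 (adjusted p = 0.00543).

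Of the GATOR complexes, which pass amino acid signals to the Rag GTPases, 5 of 8 genes were lower and 1 higher. Of all genes 20.4% were lower and 21.2% higher. Among the lower genes, Nprl2, Wdr24 and Depdc5 had features of 51.7%, 53.3% and 50% GC, in the range where the array-wide median was -0.61. Sec13 and Wdr59, lower too, had 45% and 30%, and Nprl3, the higher one, 55%. The part of GC content in these ratios was not tested. Sec13, a GATOR2 subunit that also serves the COPII coat, read 77.4 and 78.8 on the CPEB2 IgG arrays against 543 and 595 on the control arrays and had the lowest ratio of the 66, -2.81 ± 0.23 (adjusted p = 0.00543). Nprl2 of GATOR1 was lower at -2.73 ± 0.24 (adjusted p = 0.00543), while its partner Nprl3 was higher at 0.96 ± 0.24 (adjusted p = 0.0332). Telo2, a chaperone partner in the assembly of mTOR complexes, was lower at -2.75 ± 0.25 (adjusted p = 0.00543). The other mTORC2 subunits were not called, with Mapkap1, which encodes SIN1, at -0.68 ± 0.24 (adjusted p = 0.0781) and Prr5 at -0.55 ± 0.24. Tbc1d7, the remaining TSC complex subunit, was lower at -1.66 ± 0.24 (adjusted p = 0.00871), and Tsc1 and Tsc2 were not called and the difference between them was not tested. Pik3r4, which encodes the regulatory partner of Vps34, was lower like Pik3c3, at -1.33 ± 0.23 (adjusted p = 0.0127).

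Translation targets of mTORC1 were called in both directions. Eif4ebp2, the main brain repressor of the cap-binding protein eIF4E, read 5775 and 5594 on the CPEB2 IgG arrays against 1372 and 984 on the control arrays and was higher at 2.34 ± 0.24 (adjusted p = 0.00562). Eif4ebp3 was lower at -1.17 ± 0.23 (adjusted p = 0.0186) and Eif4ebp1 was not called at -0.77 ± 0.25 (adjusted p = 0.0688). Rps6, the ribosomal protein that the S6 kinases phosphorylate, was lower at -1.18 ± 0.23 (adjusted p = 0.0174).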

How the data were processed

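RNA recovered with CPEB2 IgG or control IgG was hybridized to 4 one-color Agilent mouse arrays. The authors deposited the output of Agilent Feature Extraction 10.5.1.1 for each array, in which the intensity of a spot has been corrected for background by that software and not scaled between arrays. Feature coordinates on mm9 were taken from the array annotation.

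Control spots and spots that the software had marked as non-uniform or outlying were removed, 66 features without a value on an array were dropped, repeated spots were averaged, and log2 intensities were scaled to each array's 75th percentile. The brightest of the features detected on at least 2 arrays stood for each gene. limma 3.58.1 in R 4.3.3 was fitted to 19698 genes with the experiment as a block, and again to 41137 detected features. The pairing comes from the study's methods, which divide the lysate between the antibodies, and same-numbered arrays deviated together (correlation 0.20). The labels do not say that the lysates came from separate animals, so p-values measure only the spread between these samples. In the fit limma moderates that spread across genes. An exact two-sided permutation test of 2 arrays against 2 cannot go below p = 0.333. Python 3.11.15 with numpy 2.4.6 and pandas 2.3.3 made the summaries. The number of arrays limits the precision.

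The members, the roles, the 66 further genes and the markers were chosen with earlier results of these data known. All members are named with a value. Array values are given for the mTOR complex genes and their nearest regulators and for the 5 largest changes in each direction, and other members, features and genes were given in more detail after their values were seen. Of the 66 further genes the 3 highest and 3 lowest, and those whose role is compared with a member, are named. Some of the further genes and markers are not reported here by name. Of the 73 features, 66 carry an accession that RefSeq's GRCm38.p6 table gives to the same symbol, and 71 were detected. The alternatives were other scalings, background corrections, filters, feature choices, models and thresholds, and arrays left out. The feature with a RefSeq mRNA accession and the most 3′ feature were added after seeing the data.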

Additional observations from a re-analysis of the deposited data

How the results depend on the processing

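Of the 25 called members, 12 kept direction and call under all 18 tested settings, and none changed sign. The calls that were lost belong to Akt1s1, Deptor, Irs1, Mlst8, Pdpk1, Pik3cb, Rps6ka1, Rps6ka3, Rps6kb1, Rps6kb2, Sesn1, Sesn2 and Sgk1. Members called higher were 15, and 9 without the filter on dim features, which adds genes to the test. Over all genes the number called higher went from 4174 of 19698 to 2265 of 24164. With normexp and with an intensity trend 18 members were higher and 12 lower. All genes went from 4174 higher and 4020 lower to 4967 and 4557 with normexp and to 4923 and 4681 with the trend. Among genes not called in the reported fit, Mtor gained a call in 10 settings, Pik3ca in 7, Tsc1 in 6, Rheb in 3, and Foxo1, Rps6ka2, Rraga and Stk11 in 2 each, and Igf1 in 1. With 1 array left out the inhibitors' median ranged from 0.52 to 0.61. With no replicate block, 15 members were higher and 11 lower, and over all genes 4260 and 3999. Of the members only Mtor, Pik3ca and Pik3cb changed call against the paired fit. Median centring raised all genes by 0.23, the activators' median to 0.31 and the inhibitors' to 0.80, and put 61.2% of all calls on the higher side, against 50.9%. The inhibitors' median was 0.47 with quantile normalization, 0.51 without scaling, 0.46 with the percentile over features detected on all arrays and 0.38 with GC centring, and the cause was not tested. The sign changes below all concern members that were not called. Igf1 went to -0.083 with quantile normalization, -0.052 without scaling, -0.11 with the other percentile, -0.033 with normexp and -0.45 with GC centring. Pik3r1 went to -0.018, Pik3r3 to -0.027 and Sesn3 to -0.030 with quantile normalization. The other percentile gave -0.0091 for Pik3cd, -0.040 for Pik3r3, -0.0038 for Sesn3 and -0.040 for Ulk1. GC centring gave -0.36 for Pik3cd, -0.35 for Sesn3 and -0.39 for Ulk1. Median centring gave 0.0073 for Rragc, and the mean of the features -0.30 for Pik3cd. With 1 array or 1 experiment left out the values ran over -0.38 to 0.38 for Igf1, -1.01 to 0.53 for Rheb, -0.060 to 0.28 for Pik3r1, -0.22 to 0.43 for Sesn3 and -0.044 to 0.18 for Ulk1. With either experiment left out there is no test.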

Other observations

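Genes that close the pathway down at the membrane were mostly higher with CPEB2 IgG. Of 6 lipid and AKT phosphatases in the wider list, 5 were higher in the limma test, against 21.2% of all genes. Inpp4b, which removes a phosphate from PI(3,4)P2, read 2772 and 2947 on the CPEB2 IgG arrays against 801 and 668 on the control arrays, with a log2 ratio of 2.02 ± 0.24 (adjusted p = 0.00624). Phlpp2, a phosphatase of AKT, was at 1.76 ± 0.23 (adjusted p = 0.00709), and Inpp5d, which encodes the PIP3 phosphatase SHIP1, at 1.57 ± 0.27 (adjusted p = 0.0131). Inpp4a, the relative of Inpp4b, was not called at -0.28 ± 0.24 (adjusted p = 0.404).

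In the autophagy group, 3 of 4 genes were higher, against 21.2% of all genes. These were Tfeb at 1.19 ± 0.23 (adjusted p = 0.0177), Rb1cc1 at 1.09 ± 0.26 (adjusted p = 0.0282) and Atg13 at 0.82 ± 0.23, which only just passed (adjusted p = 0.0469). Ulk1, the kinase that works with Atg13 and Rb1cc1, was not called. Of 6 AMPK subunits, Prkaa1, a catalytic one, was higher at 2.25 ± 0.23 (adjusted p = 0.00549) and Prkag1, a regulatory one, lower at -0.96 ± 0.24 (adjusted p = 0.0334). Igfbp4, which binds IGFs outside the cell, had log2 ratios of -0.95 and 1.09, and its control IgG signals were 2824 and 656 against 1380.2 and 1371 with CPEB2 IgG. These genes were chosen for the text after their values were seen.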
